A study of Mus musculus with 17 samples.

Results

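A set of 10 genes of the cyclic nucleotide phosphodiesterases, the enzymes that break down cAMP and cGMP, were followed in the hippocampus of mice kept awake and of mice left undisturbed: Pde1a, Pde1b, Pde1c, Pde2a, Pde4a, Pde4b, Pde4c, Pde4d, Pde8b and Pde10a. The members were all probe sets (groups of short probes that together read 1 transcript) whose annotation named exactly 1 gene and that gene was on the list. This gave 28 probe sets of 9 genes, among 18193 genes with such a probe set on the array. Pde4c had none and was not analysed here. Pde1b and Pde4a were each read by 1 probe set and the other 7 genes by several.

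The animals were male C57BL/6J mice, with a genotype label of C57/BL6, housed individually under 12 h of light and 12 h of dark. They were 2 months old in the sample labels and 2 to 4 months old in the growth protocol. All were handled daily for 6 days. Then 8 mice were kept awake in the home cage for 5 h by gentle handling, from about lights on, and 9 time-matched mice stayed undisturbed in theirs. Dissections followed at once and alternated between the groups, and total RNA of each animal's hippocampus was read on an Affymetrix mouse array of its own, so n was 8 and 9 separate animals. Handling was given to the animals kept awake alone in those hours, so its effect and that of sleep loss cannot be told apart.

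Phosphodiesterases set how far and how long a rise of cAMP or cGMP lasts inside a cell, since cyclases make these messengers and phosphodiesterases degrade them. The PDE1 enzymes are switched on by calcium and calmodulin and cut both messengers, PDE2A cuts both and is stimulated by cGMP, the PDE4 and PDE8 enzymes are specific for cAMP, and PDE10A, best known from striatal neurons, cuts both. PDE4 is the target of rolipram, and PDE4 activity in the hippocampus has been linked to the memory loss that follows sleep deprivation. Arrays read transcript, not enzyme activity. In a bulk sample fewer cells of a type and less RNA per cell cannot be told apart.

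Promoters are shown for the gene whose transcript differed between the groups and for the PDE4 genes that carry a cAMP response element (CRE) core near a start, because CREB-family factors bind such elements. The RefSeq windows of build GRCm38.p6 run from 250 bases before to 50 bases after an annotated start, 300 bases in all, and are printed on the strand of the gene, 5′ to 3′. The 10 listed genes, Pde4c included, had 31 windows. Capitals mark the core TGACG or its reverse complement CGTCA.
Pde1b, chr15:103502784-103503083, plus strand: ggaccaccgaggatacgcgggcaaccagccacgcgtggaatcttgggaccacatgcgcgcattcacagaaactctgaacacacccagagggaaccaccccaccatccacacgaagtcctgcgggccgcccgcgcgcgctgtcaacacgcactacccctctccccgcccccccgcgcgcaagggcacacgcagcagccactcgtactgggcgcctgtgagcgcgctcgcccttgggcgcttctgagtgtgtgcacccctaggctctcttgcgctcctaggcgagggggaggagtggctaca
Pde4a, chr9:21183851-21184150, plus strand: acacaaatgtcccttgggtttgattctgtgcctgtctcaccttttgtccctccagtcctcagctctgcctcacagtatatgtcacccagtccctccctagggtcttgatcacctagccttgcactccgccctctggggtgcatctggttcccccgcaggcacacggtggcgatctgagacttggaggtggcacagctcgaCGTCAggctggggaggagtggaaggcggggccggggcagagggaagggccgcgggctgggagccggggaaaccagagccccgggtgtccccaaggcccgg
Pde4b, chr4:102421305-102421604, plus strand: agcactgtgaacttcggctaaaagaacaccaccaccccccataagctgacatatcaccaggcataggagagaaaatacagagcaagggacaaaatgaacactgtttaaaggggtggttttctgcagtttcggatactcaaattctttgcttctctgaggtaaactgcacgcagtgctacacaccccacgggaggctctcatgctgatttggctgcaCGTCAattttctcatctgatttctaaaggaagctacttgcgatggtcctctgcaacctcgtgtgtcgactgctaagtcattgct
The Pde1b window shown is 67.0% G or C and holds no core, nor do the gene's other windows at chr15:103506876-103507175 and chr15:103514727-103515026. The core lay 50 bases before the start in the Pde4a window (64.0% G or C) and 34 bases before it in the Pde4b window (47.0%). Single windows of Pde1a, Pde2a and Pde8b held the other matches, 166 bases before, 15 bases after and 39 bases after the start. In all, 5 of 31 member windows held TGACG on either strand, against 20.8% of all 32851 windows in the table. The full element TGACGTCA, which contains the core, was found in 0 of 31 member windows and in 1.79% of all windows. A match describes letters in the window and is no measured binding site.

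Pde1b was lower after sleep deprivation, and it was the only phosphodiesterase probe set of the 28 that passed the test. A probe set is called where its Benjamini-Hochberg adjusted p over all 45037 probe sets tested lies under 0.05 in limma. Of all probe sets, 1.81% were called, 0.584% as higher and 1.23% as lower, so that the members' 1 lower and 0 higher of 28 lie near this background. Of the members, 13 had a positive and 15 a negative difference, with a median of -0.0096 on the log2 scale (sleep-deprived minus undisturbed, as are all differences given here). The median over all probe sets was 0.011. In absolute size the members' median difference was 0.046 and that of all probe sets 0.058. The unadjusted p was under 0.05 for 1 of the 28, against 15.3% of all probe sets. Mean signal was at least 6 on the log2 scale for 16 members and lower for 12, and no filter on signal was applied.

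The PDE1 genes encode the enzymes through which calcium shortens cyclic nucleotide signals. Pde1b (1449420_at), whose transcript is rich in striatum and dentate gyrus, was read in the undisturbed mice, replicates 1 to 9, at 10.19, 10.42, 10.21, 10.32, 10.02, 9.98, 10.22, 10.02 and 10.04 on the log2 scale. In the sleep-deprived mice, replicates 1 to 8, it was read at 9.95, 9.92, 9.81, 9.85, 9.91, 10.003, 9.90 and 9.93. Of the 8 sleep-deprived mice 7 lay below the lowest undisturbed mouse, and all 8 lay below the undisturbed mean; the groups overlapped only through sleep-deprived replicate 6 and undisturbed replicate 6. The mean was 10.16 ± 0.15 (SD, n = 9) in undisturbed and 9.91 ± 0.059 (SD, n = 8) in sleep-deprived mice. The difference of -0.25 (SE 0.057, 95% interval -0.37 to -0.13) is a signal 1.19-fold lower, with an interval of 1.09 to 1.29, and its adjusted p in limma was 0.026. Over all 24310 assignments of the arrays to groups of 8 and 9, the exact two-sided permutation p of this single value was 0.00037. That p is not adjusted for the number of probe sets tested, and some uncalled probe sets of the pathway lists had like or smaller values. The call lay near the threshold and was lost without any 1 of 3 arrays. Without undisturbed replicate 4, undisturbed replicate 7 or sleep-deprived replicate 3 the adjusted p in limma was 0.054, 0.052 and 0.056. The differences were then -0.23, -0.24 and -0.23. Over all 17 arrays left out singly the difference ran from -0.27 to -0.21. It was smallest in size without undisturbed replicate 2, where the call held. The spread between animals was 0.15 in the undisturbed and 0.059 in the sleep-deprived group.

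Neither of the other PDE1 genes was called. Pde1a (1449298_a_at), which prefers cGMP, ranged from 10.06 to 10.26 with a median of 10.16 in undisturbed mice and from 9.99 to 10.29 with a median of 10.17 in sleep-deprived mice. The sleep-deprived range enclosed the undisturbed one, and the difference of -0.0065 (SE 0.050, 95% interval -0.11 to 0.097) had an adjusted p of 0.97. Pde1c (1440374_at), which cuts both nucleotides about equally well, ranged from 6.02 to 6.79 (median 6.44) in undisturbed and from 6.15 to 6.56 (median 6.42) in sleep-deprived mice, a difference of -0.055 (SE 0.084, adjusted p 0.81). The other 6 probe sets of these genes, 1 of Pde1a and 5 of Pde1c, had mean signals under 6. Their differences were 0.023 for Pde1a 1431625_at and, for Pde1c, 0.023 (1444067_at), 0.010 (1429643_a_at), -0.058 (1436251_at), 0.052 (1426036_a_at) and -0.049 (1444386_at), all within the spread between animals. The smallest adjusted p among the 8 uncalled PDE1 probe sets was 0.69. Whether the Pde1b difference departs from that of Pde1a or Pde1c was not tested.

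**Figure D1:**
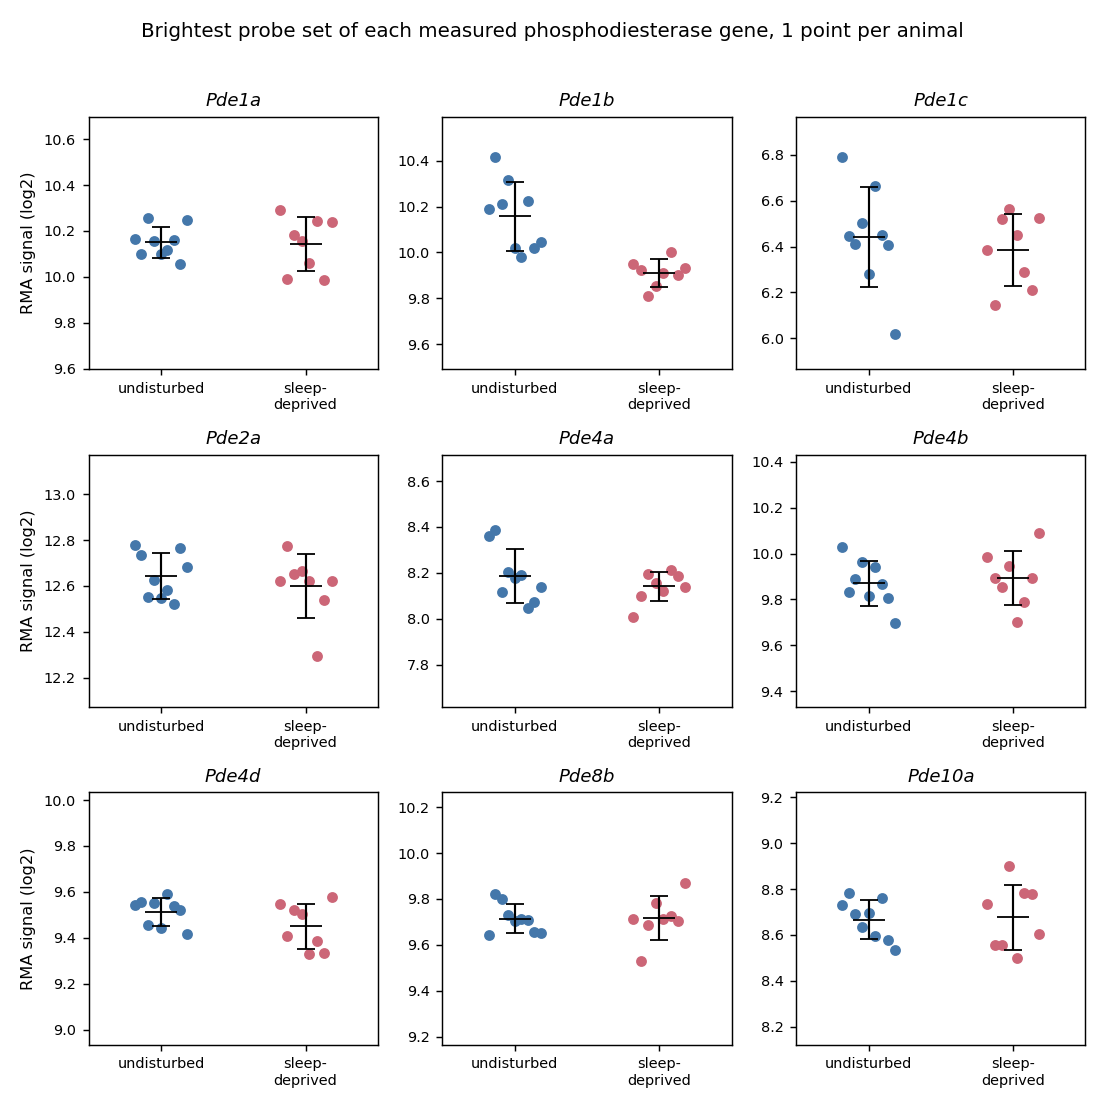
RMA signal (log2) of the brightest probe set of each of the 9 measured genes, with 1 point per animal in replicate order from left to right, undisturbed in blue and sleep-deprived in red, and the mean ± SD in black. Every panel spans the same height in log2 units; the Pde1b points of the sleep-deprived mice sit almost wholly under those of the undisturbed mice, while in the other panels the groups overlap broadly.

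Pde2a, whose enzyme lets cGMP speed the removal of cAMP and which is abundant in hippocampal principal neurons, was read by 3 bright probe sets and none was called. The brightest (1447707_s_at) ranged from 12.52 to 12.78 (median 12.63) in undisturbed and from 12.29 to 12.78 (median 12.62) in sleep-deprived mice. Its difference was -0.044 (SE 0.058, 95% interval -0.16 to 0.076, adjusted p 0.77). A second probe set (1452202_at) ranged from 11.38 to 11.48 in undisturbed and from 11.29 to 11.53 in sleep-deprived mice, with a difference of -0.013 (adjusted p 0.92). The undisturbed animals differed little here, with an SD of 0.040 against 0.098 after sleep deprivation, and this difference in spread was not tested. The dimmest of the 3 (1447708_x_at) had a mean of 8.70 ± 0.10 (SD, n = 9) in undisturbed and 8.76 ± 0.11 (SD, n = 8) in sleep-deprived mice, a difference of 0.065 (adjusted p 0.60).

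The PDE4 genes, whose enzymes remove cAMP from anchored signalling complexes, gave 9 probe sets and 0 calls, and their differences ran from -0.12 to 0.080 with a median of -0.047. Pde4a (1421535_a_at) ranged from 8.05 to 8.39 (median 8.18) in undisturbed and from 8.01 to 8.21 (median 8.15) in sleep-deprived mice. The undisturbed range reached higher but the groups overlapped, and the difference was -0.047 (SE 0.050, 95% interval -0.15 to 0.058, adjusted p 0.71). Pde4b (1422474_at), the gene whose enzyme is prominent in inflammatory and glial cells as well as neurons, ranged from 9.70 to 10.03 (median 9.87) in undisturbed and from 9.70 to 10.09 (median 9.89) in sleep-deprived mice. The means differed by 0.024 (SE 0.054, 95% interval -0.089 to 0.14, adjusted p 0.88).

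A second bright Pde4b probe set (1422473_at) ranged from 8.87 to 9.09 (median 8.94) in undisturbed and from 8.68 to 9.05 (median 8.87) in sleep-deprived mice. It had the opposite sign, -0.074 (SE 0.054, adjusted p 0.54), and neither sign passed the test. Taken against the brighter set in the same arrays, its difference was -0.098 (SE 0.059, adjusted p 0.49). Pde4d (1435280_at), which encodes the enzyme recruited to beta-adrenergic receptors by arrestins, ranged from 9.42 to 9.59 (median 9.54) in undisturbed and from 9.33 to 9.58 (median 9.45) in sleep-deprived mice. Its lowest sleep-deprived values fell under the undisturbed range, but the difference of -0.062 (SE 0.045, 95% interval -0.16 to 0.032) had an adjusted p of 0.55.

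The other 5 PDE4 probe sets, 4 of Pde4b and 1 of Pde4d, had mean signals under 6. Among them Pde4b 1442700_at had the largest difference in size, -0.12 (SE 0.11, adjusted p 0.65), and Pde4b 1444731_at the smallest adjusted p, 0.47, with a difference of -0.080. Pde4b 1446577_at and 1447718_at had 0.031 and 0.043. Pde4d 1459311_at varied most between animals, from 4.40 to 5.37 in undisturbed and from 4.38 to 5.47 in sleep-deprived mice, with a difference of 0.080 (SE 0.14, adjusted p 0.83). For the 4 brighter PDE4 probe sets the 95% intervals together reached from -0.19 to 0.14. At their ends they reach a signal 1.10-fold higher and 1.14-fold lower, each interval taken alone. For all 15 uncalled members of at least 6 in mean signal the corresponding bounds were 1.16-fold higher and 1.19-fold lower, and for the 12 dim members 1.29-fold higher and 1.27-fold lower.

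Pde8b, a cAMP-specific enzyme with very high affinity, had at its brightest probe set the smallest difference in size of the 28. That set (1435741_at) ranged from 9.64 to 9.82 (median 9.71) in undisturbed and from 9.53 to 9.87 (median 9.71) in sleep-deprived mice, with a difference of 0.0011 (SE 0.045, 95% interval -0.093 to 0.095, adjusted p 0.99). The other (1437989_at) had means of 7.72 ± 0.19 (SD, n = 9) and 7.63 ± 0.16 (SD, n = 8) in undisturbed and sleep-deprived mice, a difference of -0.093 (adjusted p 0.60).

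Pde10a, whose enzyme is a drug target in the striatum, was read by 5 probe sets without a call. The brightest (1458499_at) ranged from 8.53 to 8.78 (median 8.69) in undisturbed and from 8.499 to 8.90 (median 8.67) in sleep-deprived mice, a difference of 0.010 (SE 0.056, adjusted p 0.96). The next (1439618_at) varied more between animals, from 8.17 to 8.85 in undisturbed and from 8.13 to 9.03 in sleep-deprived mice, with a difference of -0.034 (SE 0.11, adjusted p 0.92). The other 3 had differences of 0.020 (1419389_at), 0.085 (1419390_at) and -0.013 (1432490_a_at), with adjusted p of 0.90, 0.56 and 0.96.

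**Figure D2:**
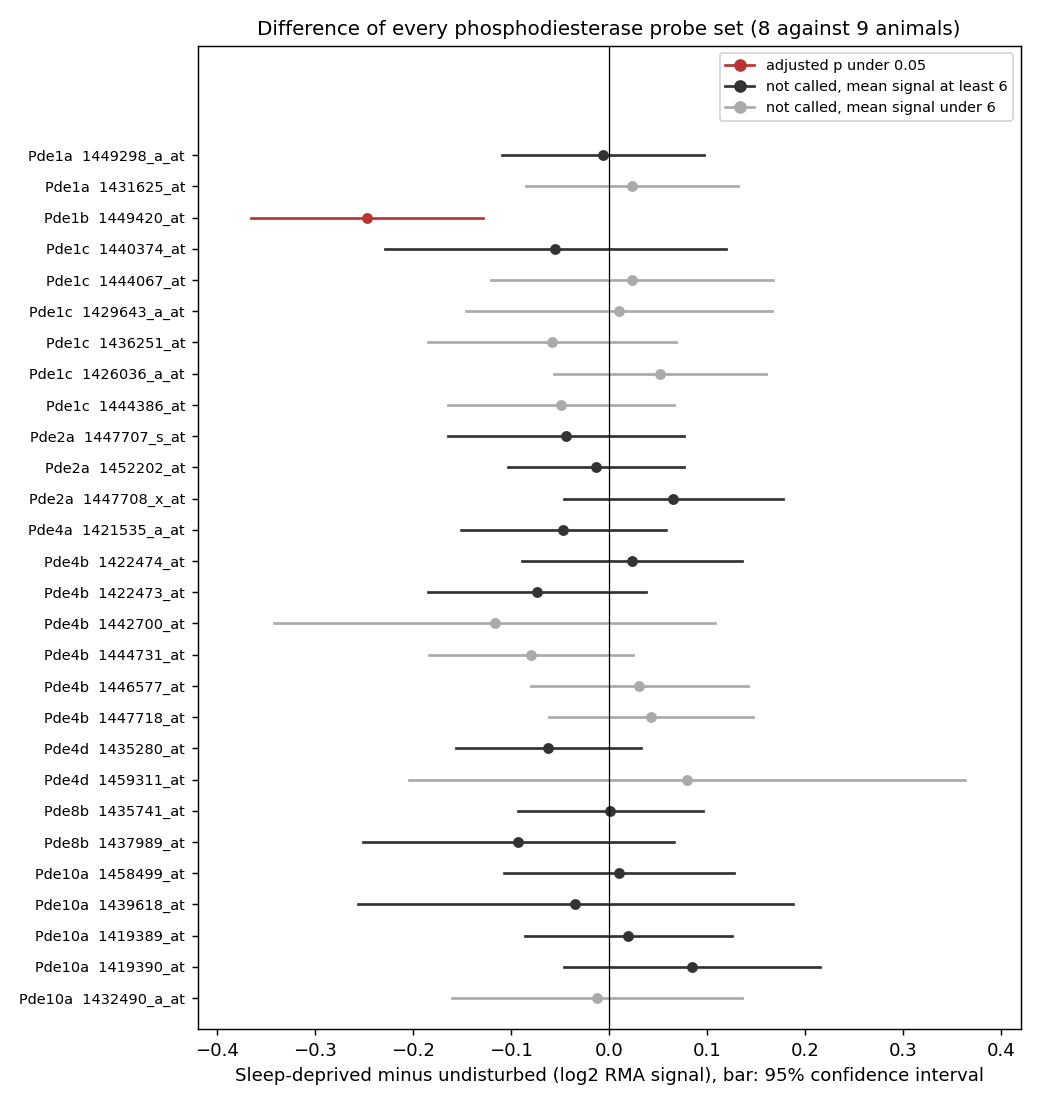
Difference of each of the 28 probe sets in log2 RMA signal (x axis, sleep-deprived minus undisturbed, 8 against 9 animals) with its 95% confidence interval; red is called, dark grey is uncalled with a mean signal of at least 6, light grey is uncalled and dimmer. The Pde1b bar alone, from -0.37 to -0.13, lies clear of 0, and Pde4d 1459311_at, Pde4b 1442700_at and Pde10a 1439618_at have the widest bars.

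Since most of these genes make several isoforms from separate starts and ends, probe sets of 1 gene may read different transcripts, and each was also compared with the brightest set of its gene within the same array. None of the 19 such pairs was called, against 1.3% of 16752 pairs over all genes, and 0 of 19 had an unadjusted p under 0.05 in limma. An exact rank-sum test of the same pairs also called 0. The pair differences ran from -0.14 to 0.14. The smallest p was that of Pde2a 1447708_x_at, which gained 0.11 on the brightest Pde2a set (p 0.11, adjusted p 0.49). Across animals, once the group means were subtracted, probe sets of 1 gene did not always vary together: Pearson's r with the brightest set ran from -0.61 to 0.51, and 10 of 19 were negative. Where both sets had a mean of at least 6, the values were 0.47 for Pde4b 1422473_at, 0.50 for Pde8b 1437989_at, 0.36 and 0.32 for Pde2a 1452202_at and 1447708_x_at, and 0.37 and 0.51 for Pde10a 1439618_at and 1419390_at, but -0.26 for Pde10a 1419389_at. Of the dim sets, 3 of the 4 of Pde4b had negative values, down to -0.52. These and the following correlations are over 17 arrays that share their processing, and they are given as description only.

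Pde4b and Pde4d varied together between animals more than any other pair of members. After subtraction of the group means r was 0.72 for their brightest sets, 0.65 among undisturbed and 0.78 among sleep-deprived mice alone, and 0.60 without the 2 arrays farthest from the Pde4b median. Pde1c followed both, with r of 0.65 to Pde4d and 0.61 to Pde4b. Its r to Pde4b was 0.93 among undisturbed but 0.22 among sleep-deprived mice, and that to Pde4d was 0.80 and 0.61. Without the 2 arrays farthest from the Pde1c median r was 0.35 to Pde4b and 0.67 to Pde4d. Over all 36 pairs of genes the median r was 0.19, with 31 positive and 5 negative values, and the lowest was -0.32 between Pde1a and Pde2a. The 4 genes whose pattern over the arrays was most like that of Pde1b by this r, among 20882 candidate probe sets, were Chd7 (0.86), Tle1 (0.85), Gas7 (0.85) and Braf (0.84), and their own differences between the groups lay from -0.088 to 0.074 with adjusted p from 0.66 to 0.96.

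**Figure D3:**
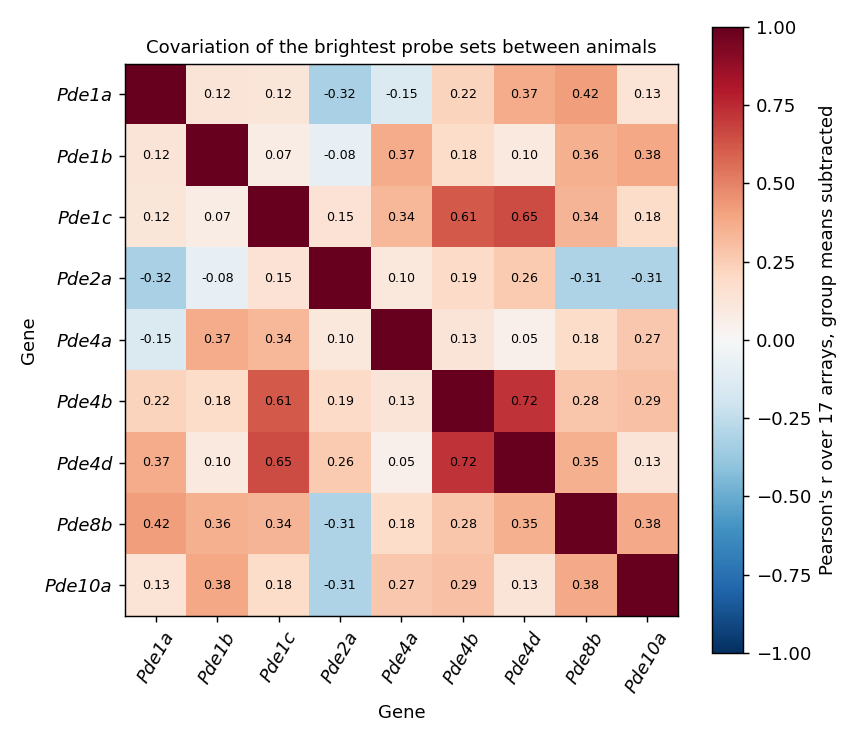
Pearson's r between the brightest probe sets of the 9 genes over 17 arrays after subtraction of each group's mean, with blue for negative and red for positive values. The darkest red cell off the diagonal is Pde4b with Pde4d, at 0.72, and most other cells are pale.

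Array medians ran from 6.14 to 6.19 in undisturbed and from 6.17 to 6.22 in sleep-deprived mice. The 3' minus 5' signal of the Gapdh and actin controls, a sign of RNA integrity, ran from 0.21 to 0.30 in undisturbed and from 0.20 to 0.42 in sleep-deprived mice. Markers of the labelled tissue were bright: the mean signal of 9 measured hippocampal neuron markers of 10 listed lay between 9.97 and 10.19 in undisturbed and between 9.93 and 10.19 in sleep-deprived mice, with 0 called.

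Striatal tissue is where Pde1b and Pde10a are most abundant, so its markers were followed beside both. Of 14 listed, 10 were measured and 0 were called, and their mean signal ran from 7.32 to 7.49 in undisturbed and from 7.32 to 7.45 in sleep-deprived mice, a difference of group means of -0.0030. Of these markers Drd2, Ido1 and Gpr6 had means under 6 (5.95, 4.81 and 4.09). Rarb, Drd1, Rgs9, Ppp1r1b, Penk, Tac1 and Foxp1 had means from 6.66 to 10.06. Which cells gave these signals was not tested. The r of Pde1b with the mean of the striatal markers was 0.16, made up of 0.38 among undisturbed and -0.535 among sleep-deprived mice. Its r with the hippocampal neuron markers was 0.66 (Spearman's rho 0.73), 0.77 among undisturbed and 0.57 among sleep-deprived mice. Pde10a had an r of 0.069 (rho 0.26) with the striatal markers, -0.0072 among undisturbed and 0.13 among sleep-deprived mice. With the hippocampal neuron markers its r was 0.71 (rho 0.70). With the mean of the hippocampal neuron markers as a covariate, chosen after seeing the data, the Pde1b difference was -0.23 (SE 0.048, adjusted p 0.012).

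Oligodendrocyte markers, whose cells make myelin, went with Pde4b and Pde4d but not with Pde4a, at r -0.051. Their mean had an r of 0.65 with Pde4b (rho 0.62) and of 0.75 with Pde4d (rho 0.74), and in each group alone the values lay between 0.56 and 0.81. The mean over 9 measured of 10 listed ran from 10.94 to 11.23 in undisturbed and from 10.86 to 11.17 in sleep-deprived mice, a difference of group means of -0.090, and 1 marker was called, Opalin, which fell by 0.41 (adjusted p 0.0037). With this mean as a covariate, also chosen after seeing the data, the Pde4d difference was -0.010 (adjusted p 0.96) and that of Pde4b 0.085 (adjusted p 0.56). The Pde1b difference stayed at -0.25 but with an adjusted p of 0.080, while the number of calls over all probe sets went from 816 to 405. Pde1b itself had an r of -0.00029 with these markers. The oligodendrocyte list was not the only one that went with Pde4b and Pde4d. With the hippocampal neuron, striatal and astrocyte markers Pde4b had r of 0.50, 0.43 and 0.31, and Pde4d 0.39, 0.41 and 0.36. With the thalamic, choroid plexus, microglial and endothelial markers Pde4b had -0.195, -0.55, -0.36 and -0.15, and Pde4d 0.089, -0.51, -0.021 and 0.135.

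The markers of other cells were followed too. Choroid plexus markers, 13 measured of 14 and 6 of them under 6, ran from 5.46 to 6.87 in undisturbed and from 5.48 to 7.11 in sleep-deprived mice, with 0 called. Sleep-deprived replicates 3, 5 and 7, at 7.11, 7.10 and 7.06, and undisturbed replicates 4 and 9, at 6.58 and 6.87, stood above the others, which were all under 6, and the difference of group means, 0.28, was larger than that of any other marker list. These markers had an r of -0.55 with Pde4b and -0.24 with Pde1b. Pde2a had an r of 0.71 (rho 0.55) with 8 thalamic neuron markers, 3 of them under 6 and 0 called. The r of Pde2a was 0.48 without the 2 arrays farthest from the marker median. With the hippocampal neuron, astrocyte and microglial markers its r was -0.37, -0.535 and -0.46. Its r with the remaining lists lay between -0.065 and 0.17. Microglial markers (9 of 10, 0 called) lay from 8.73 to 8.94 in undisturbed and from 8.79 to 8.91 in sleep-deprived mice. Astrocyte markers (9 of 9, with Gjb6 higher) ran from 10.82 to 10.92 and from 10.74 to 10.98, and endothelial markers (7 of 8, with Slco1a4 lower) from 8.11 to 8.47 and from 8.12 to 8.31, a difference of group means of -0.11. The endothelial mean had an r of -0.47 with Pde1b and of -0.61 with Pde10a. Pde10a also had an r of -0.52 with the thalamic and of -0.46 with the choroid plexus markers. The part of these cell types in the differences was not tested further.

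**Figure D4:**
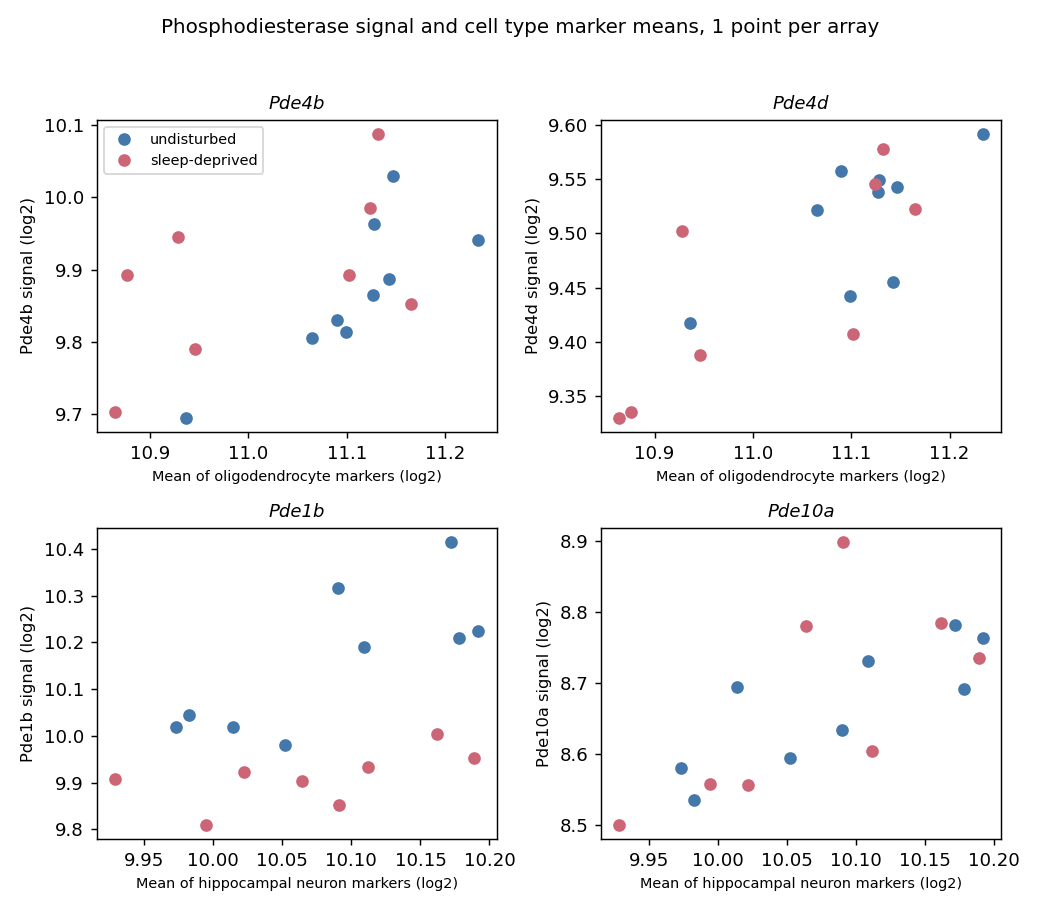
Signal of Pde4b and Pde4d against the mean of the oligodendrocyte markers, and of Pde1b and Pde10a against the mean of the hippocampal neuron markers (all log2), with 1 point per array, blue for undisturbed and red for sleep-deprived. In all 4 panels the points climb from left to right, and in the Pde1b panel the red points run below the blue ones at like marker means.

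The genes that make, sense and anchor cyclic nucleotides were counted from lists of 102 entries, of which 84 genes with 190 probe sets were measured. Of these probe sets 4 were higher, 2 were lower and 184 were not called, beside backgrounds of 0.584% higher and 1.23% lower. Unadjusted p lay under 0.05 for 34 of 190, against 15.3% of all probe sets, and the median difference was -0.017. The list of other phosphodiesterases held 15 genes by their Pde name, whether or not the product itself cuts a cyclic nucleotide. These genes, among them Pde3a, Pde5a, Pde7a and Pde9a, gave 33 probe sets and 0 calls. Pde1b was thus the single call among this list and the members. The smallest p on this list was that of Pde8a (1418406_at), the high-affinity cAMP enzyme related to Pde8b. Its difference was -0.18 (SE 0.067, p 0.014 in limma, adjusted p 0.19).

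On the side of synthesis, 1 of 22 adenylyl cyclase probe sets (10 genes) was lower. Adcy8 (1418754_at), a cyclase that calcium and calmodulin stimulate, went from 6.92 ± 0.24 (SD, n = 9) in undisturbed to 6.51 ± 0.25 (SD, n = 8) in sleep-deprived mice. The difference was -0.41 (SE 0.10, adjusted p 0.043). Leaving out single arrays ended this call for 11 of 17 arrays, with adjusted p up to 0.086. The guanylyl cyclases and nitric oxide synthase gave 0 calls in 16 probe sets of 9 genes. Of these sets 6 had an unadjusted p under 0.05 in limma, against 15.3% of all probe sets. The smallest p was that of Gucy1b1 (1420872_at), the beta subunit of the nitric oxide receptor, at -0.18 (SE 0.053, adjusted p 0.077). The other probe set of Gucy1b1 (1420871_at) had -0.12 (adjusted p 0.15). None of the 20 probe sets of 7 G protein genes of adenylyl cyclase was called; Gnao1 (1460383_at) had the smallest p, with 0.17 (adjusted p 0.30).

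Among the effectors of cAMP and cGMP, 1 of 47 probe sets (22 genes) was called. Pkig (1434820_s_at), an inhibitor protein of protein kinase A, fell from 9.91 ± 0.085 (SD, n = 9) to 9.67 ± 0.093 (SD, n = 8), a difference of -0.23 (SE 0.048, adjusted p 0.013). Its brightest probe set (1423945_a_at) had -0.13 (adjusted p 0.11), and the gap between the sets was not called (adjusted p 0.46). Of 30 probe sets for 14 anchors and partners of PDE4, 1 was higher. Nde1 (1435737_a_at), a dynein regulator found in complexes with PDE4 and Disc1, rose from 7.61 ± 0.12 (SD, n = 9) to 7.82 ± 0.10 (SD, n = 8), by 0.21 (SE 0.054, adjusted p 0.044). That call ended when any of 14 of the 17 arrays was left out (adjusted p up to 0.090).

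The list of transcription factors that answer to cAMP and their coactivators held the other calls, 3 of 22 probe sets (7 genes). All were higher and came from 2 genes, Crem and Creb1, beside 0.584% called higher over all probe sets. Crem, whose gene makes both activators and the cAMP-induced repressor ICER, rose at 1418322_at from 6.67 ± 0.10 (SD, n = 9) to 7.08 ± 0.10 (SD, n = 8), by 0.40 (SE 0.052, adjusted p 0.00025). At its brightest set (1449037_at) the rise was 0.31 (SE 0.064, adjusted p 0.013), a call lost in the exact rank-sum test and with the oligodendrocyte covariate (adjusted p up to 0.054). Its other 2 probe sets were dim, with mean signals of 4.40 (1430847_a_at) and 3.48 (1430598_at) against 7.36 for the brightest set. They had differences of 0.031 and -0.026, and against the brightest set these gaps had adjusted p of 0.046 and 0.064 in limma. Differences of dim probe sets are compressed, so these gaps cannot show whether the rise is limited to some Crem transcripts. Creb1 (1452901_at) rose by 0.18 (SE 0.044, adjusted p 0.035), a call that ended without any of 13 of the 17 arrays (adjusted p up to 0.071), and its other 5 probe sets, at 0.051 to 0.17, were not called. Whether any of these differences departs from that of the phosphodiesterases was not tested.

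**Figure D5:**
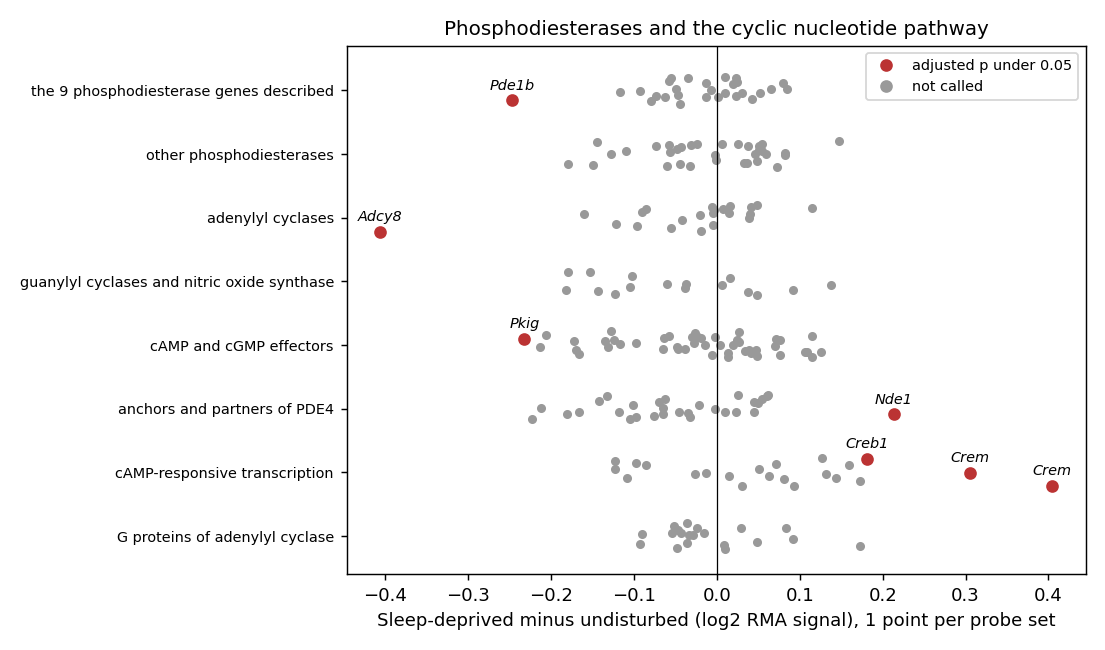
Difference of each probe set in log2 RMA signal (x axis, sleep-deprived minus undisturbed), 1 point per probe set, for the 9 phosphodiesterase genes described and for the lists of pathway genes; red points with a gene name are called and grey ones are not. Vertical scatter within a row only separates points. Pde1b and Adcy8 lie to the left at -0.25 and -0.41, and both Crem points to the right at 0.31 and 0.40.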

How the data were processed

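Hippocampal RNA of 17 mice, 1 array each, was analysed from the deposited table of log2 signals, which the authors made with RMA and the affy package, per the submitters' processing notes; no versions or order of steps are given there. That the log is to base 2 was read from the values' span. RMA equalises array distributions, which hides any change common to most transcripts and compresses differences of dim probe sets. The number of arrays sets the precision.

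Of 45101 probe sets, 64 controls were left out. The platform annotation gave 1 symbol to 34945, several to 932 and none to 9160. Differences were fitted over all 45037 with limma 3.58.1 (lmFit, eBayes) in R 4.3.3, all p adjusted over them. For 9010 genes with several probe sets, each set minus the brightest was fitted likewise (16752 pairs). Single values were also tested by exact permutation. Correlations are of residuals from group means. Both fits were tested on simulated data with independent noise and planted differences larger than any of the members. The simulation thus does not tell how often differences of the members' size are found. The highest correlation between arrays was 0.998.

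All members are named with every probe set. Of each pathway list, called genes (at most 4) or the gene of smallest p are named, and for a called member its 4 most similar genes. Members and lists were chosen with earlier results of these data known. Alternatives covered scaling, a mean signal of at least 6, moderation, weights, a replicate block, covariates, a rank-sum test, the brightest probe set per gene and each array left out. Promoter windows came from RefSeq.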

Additional observations from a re-analysis of the deposited data

Results flagged for a closer look

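Single animals stood apart from the rest of their group in 5 of 56 sets of values (28 probe sets in 2 groups) by Dixon's criterion, which marks about 1 in 20 sets by chance. Pde10a 1439618_at was lowest in undisturbed replicate 5, at 8.17, with the next animal at 8.52. Pde2a 1447708_x_at was lowest in undisturbed replicate 1, at 8.47 (8.465), with the next at 8.67. The other 3 were dim probe sets. Pde1c 1444067_at reached 5.45 in undisturbed replicate 6 (next 5.05), Pde4b 1447718_at reached 3.52 in undisturbed replicate 9 (next 3.35), and Pde1a 1431625_at was at 3.36 in sleep-deprived replicate 4 (next 3.57). No animal stood apart for Pde1b, and the 5 values came from 5 different arrays.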

How the results depend on the processing

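Over the scalings, filters, tests and covariates the number of called members was 1, except 0 with the oligodendrocyte covariate, and it was 0 to 1 with single arrays left out. The 27 uncalled members stayed uncalled everywhere (smallest adjusted p 0.20), and 16 of 28 kept their sign. Pde1b kept its sign, at -0.27 to -0.21 with an array left out. Its difference was -0.27 after median centring and -0.21 after both quantile normalization and cyclic loess (adjusted p in limma 0.020, 0.041 and 0.044). No pair of probe sets of a member was called under any alternative. The number of called pathway probe sets, 6, was 3 with the choroid plexus covariate, 2 with the oligodendrocyte covariate and 3 to 5 with an array left out; the cause was not tested. Crem 1418322_at and Pkig 1434820_s_at kept their calls in every alternative. Besides the arrays left out, Adcy8 lost its call with array weights, in the rank-sum test and with the choroid plexus and oligodendrocyte covariates (adjusted p up to 0.21), Nde1 with median centring, array weights and both covariates (up to 0.20), and Creb1 with median centring, the replicate block and both covariates (up to 0.14). Gucy1b1 1420872_at gained one at a mean of at least 6 (adjusted p 0.040), with trended moderation (0.043) and with the block (0.040), and Pkig 1423945_a_at at a mean of at least 6 (0.048) and in the rank-sum test (0.030). With the replicate number as a block, undisturbed replicate 9 left out, 1 member, 6 pathway probe sets (Creb1 lost, Gucy1b1 gained) and 0 pairs were called, and Pde1b had -0.26 (adjusted p 0.046). Same-numbered arrays deviated together in 4 of 8 pairs (r over 0.1), and 1 of 8 correlated best with its own number, so the numbers are taken as names only. Over all probe sets 816 were called, but 1332 at a mean of at least 6 and 405 with the oligodendrocyte covariate, which, like the hippocampal neuron covariate, was chosen after seeing the data; the share that was higher, 32.2%, was 19.2% after median centring, 44.9% after quantile normalization and 41.5% after cyclic loess.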
